A study of Mus musculus with 6 samples.

Results

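Heart chamber identity was followed through 9 genes: the ventricular transcription factor genes Irx3, Irx4, Irx5 and Hey2, the atrial orphan receptor genes Nr2f1 and Nr2f2, and the atrial-enriched genes Dkk3, Mybphl and Stard10. They were taken by symbol from a table of 23404 mouse genes, and all 9 were present. Messenger RNA had been sequenced from cardiomyocytes of C57BL/6J mice, sorted into a FITChigh/FSCdim gate (bright green autofluorescence, low forward scatter, 3 libraries, here FITChigh) and a FITCdim/FSChigh gate (dim autofluorescence, high forward scatter, 3 libraries, here FITCdim). Each gate has 3 libraries described as biological replicates, and the title of the series names ventricular cardiomyocytes as the target of the method. The age and sex of the mice, the number of animals behind a library and how the heart was cut before sorting are not given in the labels.

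Working muscle of the atria and of the ventricles is kept distinct by transcription factors. Iroquois homeodomain proteins (Irx) and the basic helix-loop-helix repressor Hey2 act on the ventricular side, and in mice Hey2 holds atrial genes down in ventricular muscle. The COUP transcription factors encoded by Nr2f1 and Nr2f2 are orphan nuclear receptors, and in mice loss of Nr2f2 from atrial muscle shifts it towards a ventricular programme. Nr2f2 also marks veins and lymphatic vessels, and Hey2 is used in arteries, so neither is specific to muscle.

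On the mm10 build (GENCODE M21 annotation) Irx3 lies on chromosome 8, 91798525 to 91802067, and Irx5 on the same chromosome, 92357625 to 92376286. Irx4 lies on chromosome 13, 73260479 to 73269608, and Hey2 on chromosome 10, 30832359 to 30842801. Nr2f1 lies on chromosome 13, 78188973 to 78199757. Nr2f2 (70351944 to 70366735), Dkk3 (112116017 to 112159057) and Stard10 (101317086 to 101346626) all lie on chromosome 7, and Mybphl lies on chromosome 3, 108364911 to 108380057.

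RefSeq promoter windows (GRCm38.p6, 250 bases before to 50 bases after a start) matched 7 of the 9 genes. Dkk3 and Irx5 had no entry. The 5 sequences here are shown because they set ventricular regulators beside genes that were lower in FITChigh. They run from 250 to 31 bases before the start, 5′ to 3′ on the strand of the gene, with CG dinucleotides in capitals. They cover chr13:73260247-73260466 on the plus strand for Irx4, chr10:30842814-30843033 on the minus strand for Hey2, and chr7:70366777-70366996 on the minus strand for Nr2f2. Those of Mybphl and Stard10 are chr3:108364661-108364880 and chr7:101316836-101317055, both on the plus strand.
Irx4: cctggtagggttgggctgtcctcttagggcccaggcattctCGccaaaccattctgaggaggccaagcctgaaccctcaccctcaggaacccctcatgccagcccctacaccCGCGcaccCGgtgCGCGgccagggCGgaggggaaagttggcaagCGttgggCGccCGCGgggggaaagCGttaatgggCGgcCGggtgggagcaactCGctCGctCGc
Hey2: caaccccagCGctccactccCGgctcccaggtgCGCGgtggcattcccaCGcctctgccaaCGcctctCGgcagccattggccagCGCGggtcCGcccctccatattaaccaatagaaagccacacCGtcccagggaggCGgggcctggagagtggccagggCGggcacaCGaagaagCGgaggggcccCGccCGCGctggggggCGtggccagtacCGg
Nr2f2: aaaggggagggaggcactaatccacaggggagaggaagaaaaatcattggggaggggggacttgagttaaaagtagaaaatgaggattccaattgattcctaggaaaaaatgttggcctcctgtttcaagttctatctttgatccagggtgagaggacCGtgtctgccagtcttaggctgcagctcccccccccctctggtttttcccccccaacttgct
Mybphl: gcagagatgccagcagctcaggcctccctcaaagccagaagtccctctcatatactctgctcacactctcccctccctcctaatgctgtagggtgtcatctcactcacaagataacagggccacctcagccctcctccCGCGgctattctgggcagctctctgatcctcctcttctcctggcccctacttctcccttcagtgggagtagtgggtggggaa
Stard10: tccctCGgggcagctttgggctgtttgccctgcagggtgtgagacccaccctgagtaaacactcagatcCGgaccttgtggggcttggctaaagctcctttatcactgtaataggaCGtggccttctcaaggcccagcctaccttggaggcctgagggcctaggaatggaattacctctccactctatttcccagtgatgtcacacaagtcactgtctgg
The windows of Irx4 and Hey2 held 17 and 20 CG dinucleotides, with 82.1% and 87.2% of all 32851 promoters holding fewer. Those of Nr2f2, Mybphl and Stard10 held 1, 2 and 3, below the median of 5. Irx3, the ventricular gene that rose in FITChigh, had 11, in a window that GENCODE counts as exon. Nr2f1 has 2 RefSeq starts, whose windows held 22 and 2 and also overlap its exons. The full windows of 300 bases were searched on both strands for 5 motifs. The nuclear receptor half-site AGGTCA was in 16.3% of all promoters. The E-box bound by Hairy-related factors, CACGTG, was in 7.15%. The Iroquois motif, spelled ACANNTGT, was in 7.38% of all promoters. The T-box half-site AGGTGT was in 13.7% and the GATA motif, written AGATAA, in 11.2%. The single match among 8 windows of 7 genes was AGATAA in Mybphl, on the strand of the gene, 141 bases before the start.

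Levels are adjusted read counts, the values the authors deposited, which are scaled to a common library size and not divided by gene length. Recovered reads, the whole reads behind those values, numbered 1589825 to 2931045 per library in FITChigh and 1705626 to 3345994 in FITCdim. Summed adjusted counts were 2333473 to 2443707 per library in FITChigh and 2030583 to 2112872 in FITCdim. A gene entered the test where 3 or more libraries reached a value of 1. Of 12907 such genes, limma called 324 higher in FITChigh, or 2.51%, and 1748 lower, or 13.5%, at a Benjamini-Hochberg adjusted p under 0.05. The 3 FITChigh values lay entirely above the 3 FITCdim values for 11.4% of tested genes and entirely below them for 20.2%. With libraries rescaled to one common total the split was 41 higher and 2189 lower, and with quantile normalization it was 467 higher and 1213 lower. The median over all tested genes, as log2 fold change, was -0.01 as deposited, -0.20 after rescaling and 0.13 after quantile normalization. The 12 cardiomyocyte markers, a check on the label, had a summed level of 413232 to 439433 adjusted read counts in FITChigh and 266513 to 321469.7 in FITCdim. The most abundant of them, Myh6, had a mean of 159480.1 in FITChigh and 96706 in FITCdim and was not called (limma adjusted p = 0.14). Of the 12, 1 was called higher, and that call did not hold in every alternative analysis.

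The atrial genes fell in FITChigh, and the ventricular regulators stood at or above their FITCdim levels. All 5 atrial genes were called lower, by log2 fold changes from -3.28 to -1.22, beside 13.5% of all tested genes. Of the 4 ventricular regulators, Irx3 was called higher, beside 2.51% of all tested genes. Irx4, Irx5 and Hey2 did not pass, with estimates from 0.32 to 0.39. The median log2 fold change was -2.93 over the atrial genes and 0.36 over the ventricular ones, beside -0.01 over all genes tested. Medians near these were found in other lists, at 0.46 for cardiomyocyte markers, -2.70 for endothelial markers and -2.66 for fibroblast markers. All 9 genes passed the filter on low values, Nr2f1 only through its FITCdim libraries. In bulk RNA, fewer cells of a type and less RNA per cell cannot be told apart.

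**Figure D1:**
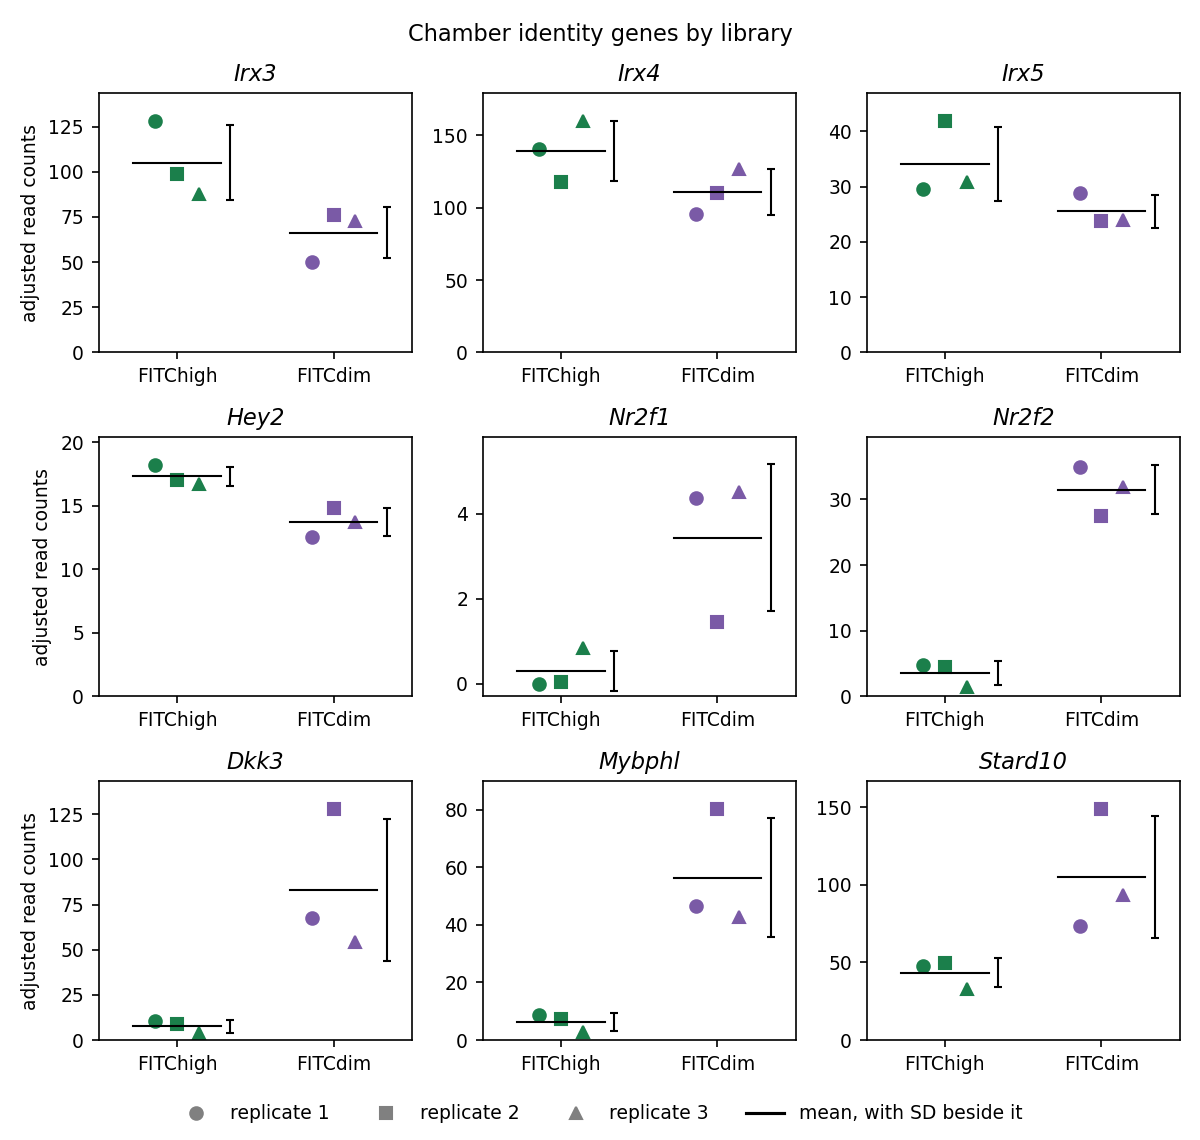
Adjusted read counts of the 9 genes in each of the 3 FITChigh libraries (left in each panel, green) and the 3 FITCdim libraries (right, purple), with symbols for replicates, a line at the mean and a bar for the SD. The y axis is linear and differs between panels. The values of the gates overlap for Irx4 and not for the other 8 genes. Over all tested genes, the FITChigh values lay entirely above the FITCdim values for 11.4% and entirely below them for 20.2%.

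Irx4, whose product is restricted to ventricular muscle from early development, had the highest level of the 9 genes in FITChigh. It stood at 140.3, 118 and 159.7 adjusted read counts in FITChigh replicates 1, 2 and 3, against 95.5, 110.2 and 127 in FITCdim replicates 1, 2 and 3. The lowest FITChigh library lay below the highest FITCdim library, so the gates overlapped. Its difference of 0.33 in log2 (SE 0.17, n = 3 per gate) missed the threshold (limma adjusted p = 0.24).

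Irx3, which in mice is needed for fast conduction through the Purkinje network, was the ventricular gene that rose. It stood at 128, 98.9 and 87.8 adjusted read counts in the FITChigh libraries, against 50.2, 76.2 and 72.8 in the FITCdim libraries. Every FITChigh library lay above every FITCdim library. Its log2 fold change was 0.66 (SE 0.21, limma adjusted p = 0.041), which is 1.58-fold. The call was lost after rescaling to one common total (log2 fold change 0.46, adjusted p = 0.16), when FITChigh replicate 1 (adjusted p = 0.21), FITChigh replicate 2 (adjusted p = 0.063) or FITCdim replicate 1 (adjusted p = 0.20) was left out, and limma's adjusted p ran from 0.021 to 0.21 over 15 alternatives.

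Irx5, the neighbour of Irx3 on chromosome 8, represses the potassium channel gene Kcnd2 in the mouse ventricle. It stood at 29.5, 41.8 and 30.9 adjusted read counts in FITChigh and at 28.9, 23.7 and 24.0 in FITCdim. The gates did not overlap, though the lowest FITChigh library and the highest FITCdim library were close, and FITChigh replicate 2 was the highest of the 6. For Irx5 the log2 fold change was 0.39 (SE 0.26, limma adjusted p = 0.36).

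Hey2 was the least abundant of the ventricular regulators, at 18.2, 17.0 and 16.7 adjusted read counts in FITChigh and 12.5, 14.8 and 13.7 in FITCdim. The gates did not overlap and the libraries of each gate were close together. These values rest on 51 recovered reads in FITChigh and 45 in FITCdim, and the difference of 0.32 in log2 (SE 0.31) missed the threshold (limma adjusted p = 0.55). The ratio of its reads, scaled for library size, was 1.28 with an exact 95% counting interval of 0.84 to 1.95.

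Nr2f2, the COUP factor of atrial muscle and of veins, stood at 4.80, 4.43 and 1.41 adjusted read counts in FITChigh, against 35, 27.5 and 31.9 in FITCdim. The lowest FITCdim library was far above the highest FITChigh library. The log2 fold change was -2.93 (SE 0.40, limma adjusted p = 7.2e-05), and it rested on 10 recovered reads in FITChigh and 107 in FITCdim. The ratio of reads was 0.105, with an exact 95% counting interval of 0.0492 to 0.202.

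Nr2f1, its close relative, was near the limit of detection. It was listed at 0, 0.0325 and 0.83 adjusted read counts in FITChigh and at 4.38, 1.44 and 4.51 in FITCdim, from 1 recovered read against 12. The values of the gates did not overlap. For Nr2f1 the log2 fold change was -1.75 (SE 0.57, limma adjusted p = 0.047), and the ratio of reads was 0.0941 with an exact 95% counting interval of 0.0022 to 0.636. Because it entered the test through FITCdim alone, and because 5 of the 11 alternatives that could test it called it, this call is not firm. Protein-coding transcripts of Nr2f1 and Nr2f2 in GENCODE shared 0 exact windows of 75 bases, the read length. A read from these transcripts with no mismatch would thus not be assigned to both. Other transcript types were not compared.

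Dkk3, a secreted glycoprotein gene of the Dickkopf family, differed the most of the 9. It stood at 10.6, 8.96 and 3.65 adjusted read counts in FITChigh, against 67.4, 128 and 54.3 in FITCdim. FITCdim replicate 2 stood apart above its group, and no library of one gate reached the other. Its log2 fold change of -3.28 (SE 0.38, limma adjusted p = 1.4e-05) was number 37 from the lowest among 12907 tested genes.

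Mybphl, myosin binding protein H-like, is a thick filament protein gene of atrial muscle and of part of the conduction system. It stood at 8.64, 7.45 and 2.90 adjusted read counts in FITChigh, against 46.4, 80.3 and 42.6 in FITCdim. FITCdim replicate 2 was again the highest library and FITChigh replicate 3 the lowest. Mybphl had a log2 fold change of -3.02 (SE 0.38, limma adjusted p = 3.3e-05).

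Stard10, which encodes a phospholipid transfer protein with a START domain, fell less. It stood at 47.8, 49.8 and 32.9 adjusted read counts in FITChigh, against 73.3, 149 and 93.8 in FITCdim. All FITChigh libraries lay below all FITCdim libraries, and FITCdim replicate 2 was the highest. The log2 fold change was -1.22 (SE 0.25, limma adjusted p = 0.0028), and the ratio of the FITChigh mean to the FITCdim mean was 0.413.

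**Figure D2:**
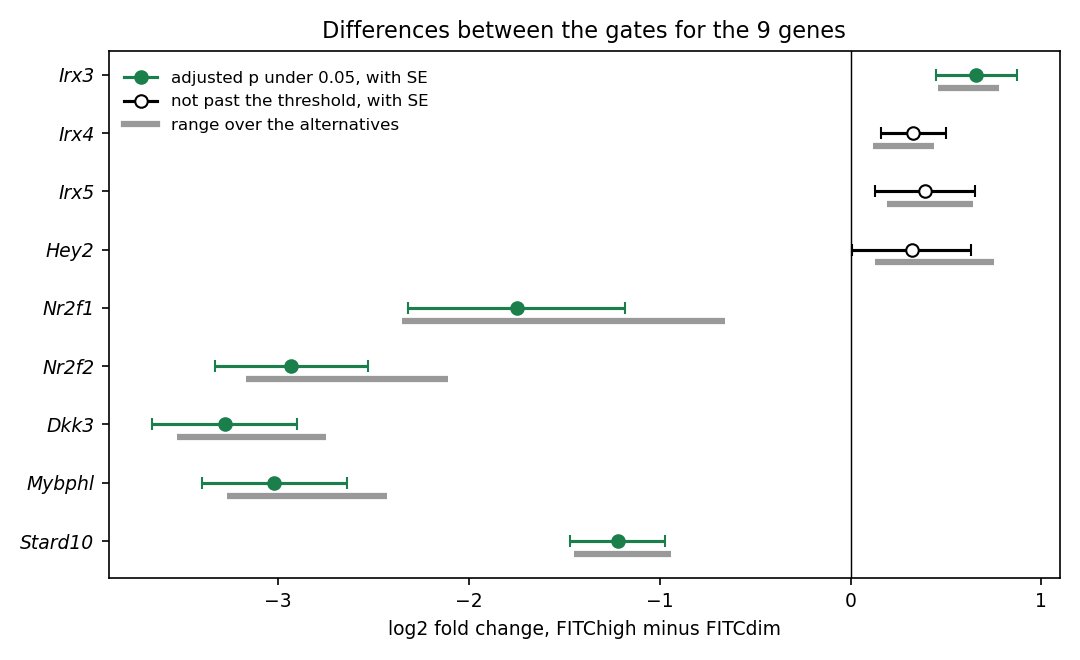
Log2 fold change, FITChigh minus FITCdim, for each of the 9 genes (points, with SE bars), and its range over up to 15 alternative analyses (grey bars under the points). Filled points passed an adjusted p under 0.05. The 5 atrial genes lie between -3.28 and -1.22 and the 4 ventricular genes between 0.32 and 0.66, and no grey bar crosses 0.

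To set the genes beside each other, levels were divided by the exon length in the GENCODE annotation, with the exons of all transcripts of a gene merged. In FITChigh the order was Irx4 at 53.5 ± 7.96 adjusted read counts per kb, Irx3 at 38.0 ± 7.54, Stard10 at 18.0 ± 3.83 and Irx5 at 10.9 ± 2.16 (SD, n = 3 each). Mybphl at 4.96 ± 2.37, Hey2 at 3.76 ± 0.17, Dkk3 at 2.30 ± 1.08, Nr2f2 at 0.411 ± 0.216 and Nr2f1 at 0.0565 ± 0.0923 followed (SD, n = 3 each). The libraries of Irx4 and Irx3 overlapped in range per kb, as did those of Mybphl with both Hey2 and Dkk3, so these were not ordered beyond their spread. In FITCdim, Mybphl at 44.2 ± 16.3, Stard10 at 43.6 ± 16.2 and Irx4 at 42.6 ± 6.12 adjusted read counts per kb were not separable, nor were Dkk3 at 24.8 ± 11.7 and Irx3 at 24.0 ± 5.11 (SD, n = 3 each). The Dkk3 libraries, at 16.2 to 38.1 adjusted read counts per kb, also reached into the ranges of Mybphl, Stard10 and Irx4. Irx5 at 8.17 ± 0.935, Nr2f2 at 3.65 ± 0.434, Hey2 at 2.97 ± 0.242 and Nr2f1 at 0.676 ± 0.342 completed that order, with Nr2f2 and Hey2 overlapping (SD, n = 3 each). Per length, Irx4 therefore stood about level with the atrial genes Mybphl and Stard10 in FITCdim and above them in FITChigh. The annotation the authors counted on is not stated, so its exon lengths may differ. The merged length was 4593 bases for Hey2 and 8625 for Nr2f2. Their protein-coding transcripts held only 2476 and 4897 distinct windows of 75 bases. A shorter length would raise the values per kb of Hey2 and Nr2f2, so their places in the order depend on the length used.

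The libraries within a gate did not vary alike for all atrial genes. In FITCdim replicate 2, Dkk3 stood at 154% of its FITCdim mean, Mybphl at 142% and Stard10 at 142%. Some other atrial genes were high in the same library. Sln, the sarcolipin gene, stood at 152%, Myl7, the atrial regulatory light chain, at 150% and Nppa, the atrial natriuretic peptide gene, at 141%. Of the other atrial genes tested, Myl4 was also highest there. Gja5 was instead highest in FITCdim replicate 1, and Kcnj3 and Kcnk3 in FITCdim replicate 3. Kcna5 varied little, at 71.3, 77.8 and 75.3 adjusted read counts in FITCdim replicates 1, 2 and 3. Nr2f2 was lowest in FITCdim replicate 2 within its gate, at 87.5%. Summed marker lists of other cell types were highest in FITCdim replicate 1, at 106% for endothelial markers, 142% for fibroblast markers, 154% for macrophage markers and 128% for mesothelial markers. In FITChigh, replicate 3 was the lowest library for Dkk3, Mybphl, Stard10 and Nr2f2.

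**Figure D3:**
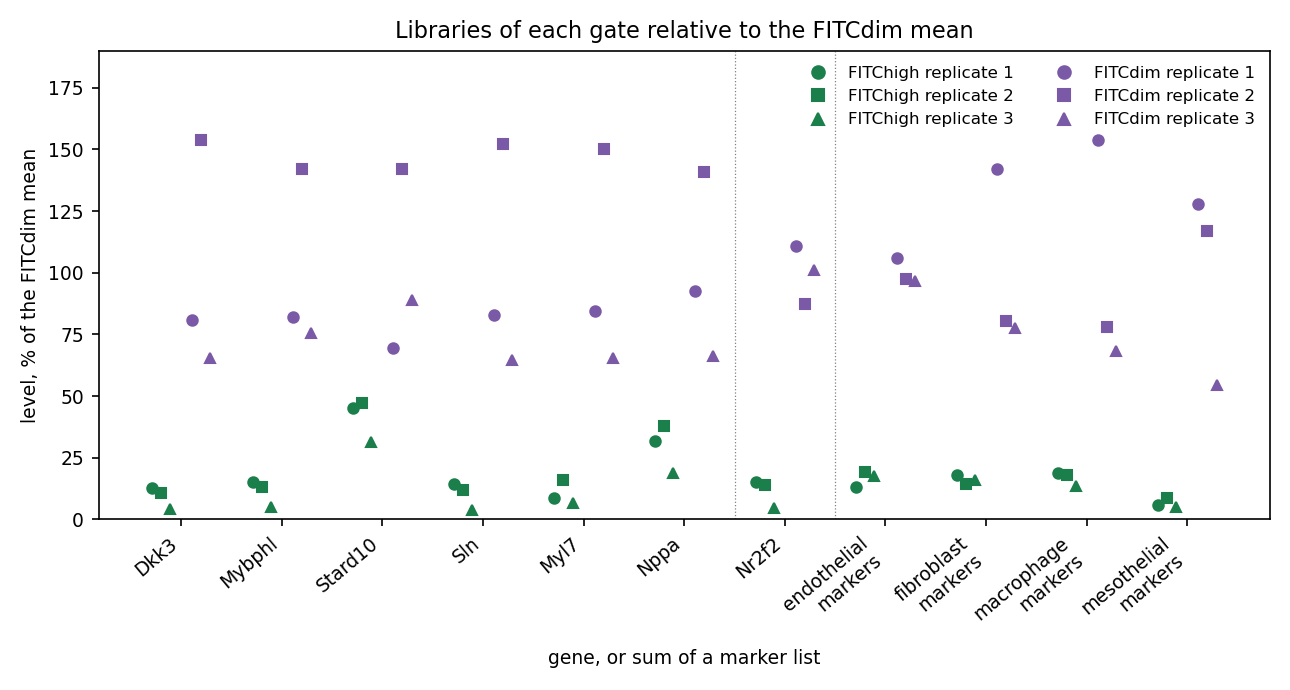
Level of each gene, or of the sum of a marker list, in the 3 FITChigh libraries (left of each tick, green) and the 3 FITCdim libraries (right of each tick, purple), as a percentage of the FITCdim mean, with symbols for replicates. FITCdim replicate 2 (purple squares) is highest for the 6 atrial genes on the left, from 141% to 154%, and lowest in its gate for Nr2f2 at 87.5%.

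For each of the genes other than Nr2f1, the genes most like it over the 6 libraries were found. Likeness was Pearson's r of log2(value + 1) with 8237 genes of at least 20 mean adjusted read counts. It is a description, since all genes share the libraries and the difference between the gates. With 8237 genes compared over only 6 libraries, the highest r can also be near 1 by chance, which was not tested. Dkk3 was most like Mybphl (r = 0.999) and then Sln (r = 0.998), and Mybphl was most like Dkk3 and then Sln (r = 0.998). Nr2f2 was instead most like H2-Q4, a class I histocompatibility gene (r = 0.998), and Tmsb10, an actin-binding thymosin (r = 0.996). H2-Q4 stood at 14.4, 14.8 and 7.6 adjusted read counts in FITChigh and 81.6, 67.3 and 83.1 in FITCdim. Reads of H2-Q4 may be shared with other class I genes.

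Stard10 was paired in this way with Ccm2 (r = 0.982). Hey2 was most like Iars2 (r = 0.999), the mitochondrial isoleucine tRNA synthetase, and Tuba8 (r = 0.995), a muscle alpha tubulin. The Hey2 values rest on only 11 to 21 recovered reads per library, so its r values are not firm. Irx3 was most like Dhx34 (r = 0.990) and Kifc3 (r = 0.988), Irx4 like Samd4 (r = 0.992) and Tfg (r = 0.992), and Irx5 like Zfp697 (r = 0.994) and Osgep (r = 0.985).

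Other atrial genes moved with the 5 members in part. Of 10 listed, 8 were tested; 6 fell, and 2 missed the threshold, with a median log2 fold change of -2.64. Myl7 had the largest change at -3.23 (limma adjusted p = 1.6e-06), followed by Myl4, the atrial essential light chain, and Sln. Nppa fell less, at -1.74. Kcnk3, an acid-sensitive potassium channel and the most abundant of the list by adjusted read counts, stood at 1408, 1078 and 1339 in FITChigh and 1063, 1152 and 1438 in FITCdim (log2 fold change 0.07, limma adjusted p = 0.81). Bmp10, a growth factor of right atrial muscle, was below the filter, at 0.965, 0.0326 and 0 adjusted read counts in FITChigh and 0, 12.7 and 3.50 in FITCdim.

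Of 8 other ventricular genes, 7 were tested; 1 rose, and 6 missed the threshold, with a median log2 fold change of 0.34. The one called higher was Kcnd2, the channel gene that Irx5 represses in mouse ventricle. It stood at 114, 122 and 137 adjusted read counts in FITChigh and 82.8, 75.9 and 100 in FITCdim, without overlap (log2 fold change 0.53, limma adjusted p = 0.047). That call was lost after rescaling to one common total (limma adjusted p = 0.26) and when any library other than FITCdim replicate 3 was left out (limma adjusted p = 0.08 to 0.16). The regulatory light chain gene of the ventricle, Myl2, was the most abundant and overlapped between the gates, at 25261 to 37151 adjusted read counts in FITChigh and 19917 to 25382 in FITCdim (log2 fold change 0.49, limma adjusted p = 0.16). Among 5 genes tied to Irx3 or Irx5 in mouse heart, 4 were tested. Kcnd2 was called higher, with the same losses, Gja5, the connexin 40 gene that Irx3 activates in the conduction system, fell (log2 fold change -2.69, limma adjusted p = 0.0028), and the other two did not pass, among them Gja1, a ventricular connexin gene, at 0.34 (limma adjusted p = 0.17). Gja5 is also on the lists of atrial and arterial genes.

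The families of the members did not all follow them. The Iroquois paralogs Irx1 and Irx2 were tested and missed the threshold, at log2 fold changes of 0.72 and 0.20, and limma gave neither an unadjusted p under 0.05 (0.091 and 0.62). Of 6 tested relatives of the COUP factors, none was called in either direction, with a median of 0.06, and limma gave an unadjusted p under 0.05 for 1 of them. The nearest of them to the COUP factors by name, Nr2f6, stood at 68.8, 65.5 and 48.0 adjusted read counts in FITChigh and 38.0, 43.1 and 38.8 in FITCdim, without overlap, and did not pass (log2 fold change 0.58, limma adjusted p = 0.086). Rxra, a retinoid X receptor and the most abundant, stood at 0.06.

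Relatives of Hey2 and Notch pathway genes were mostly lower in FITChigh. Of 12 tested, 9 fell and 3 missed the threshold, with a median log2 fold change of -2.21. Hey1, a close relative, stood at 2.84, 5.73 and 3.11 adjusted read counts in FITChigh and 22.3, 19.8 and 15 in FITCdim (log2 fold change -2.06, limma adjusted p = 0.0014). The ligand genes Dll1 and Dll4 fell, at -3.20 and -2.68, as did the receptor gene Notch1, at -2.76, which had the highest level in FITCdim (mean 32.2 in FITChigh libraries, against 217 in FITCdim libraries). Arterial endothelial markers fell too, 8 of 8 tested, but Hey1 and Dll4 are on both lists. The arterial list had summed levels of 49.5 to 59.1 adjusted read counts per library in FITChigh and 282 to 339.6 in FITCdim.

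Paralogs of the atrial-enriched genes were mostly silent or did not pass. Of the Dickkopf group, Dkk1, Dkk4 and Dkkl1 were listed at 0 in every library, and the 3 coreceptor genes tested, Lrp5, Lrp6 and the most abundant, Kremen1, were not called (unadjusted limma p of 0.39, 0.095 and 0.59). Mybph was listed at 0 in all FITChigh libraries and at 0.571, 1.19 and 0.0189 adjusted read counts in FITCdim, and the main cardiac relative, Mybpc3, cardiac myosin binding protein C, did not pass (log2 fold change 0.46, limma adjusted p = 0.075). Of 9 other START domain genes, 2 fell and 7 missed the threshold, beside 13.5% of all tested genes called lower. Stard4 fell, at -2.06, and Stard8, at -0.77. The Stard4 call rested on 4 recovered reads in FITChigh and 30 in FITCdim. It was lost with quantile normalization and without FITChigh replicate 2 or FITCdim replicate 1 or 3 (limma adjusted p = 0.082 to 0.16). Stard7, which had the highest level, stood at 0.12 and was not called.

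Of 14 other cardiac transcription factors, 2 rose, 2 fell and 10 missed the threshold, with a median log2 fold change of 0.06. Of all tested genes, 2.51% were called higher and 13.5% lower. Hand2, a helix-loop-helix factor of the ventricles and outflow tract, rose by 0.69 (limma adjusted p = 0.011), and Gata6, a zinc finger factor, by 0.49 (limma adjusted p = 0.023). Both calls were lost after rescaling to one common total (limma adjusted p = 0.056 for Hand2 and 0.21 for Gata6), without FITChigh replicate 1 (0.051 and 0.11) and without FITCdim replicate 1 (0.069 and 0.093). Gata6 also lost its call without FITChigh replicate 3 (limma adjusted p = 0.064) or FITCdim replicate 2 (0.095). Tbx2 and Tbx3, T-box repressors of the slowly conducting and conduction tissue, fell, at -2.66 and -1.42. Gata4, the most abundant, stood at 0.03 and Tbx5, a T-box factor of the atria and left ventricle, at -0.06 (limma adjusted p = 0.86).

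**Figure D4:**
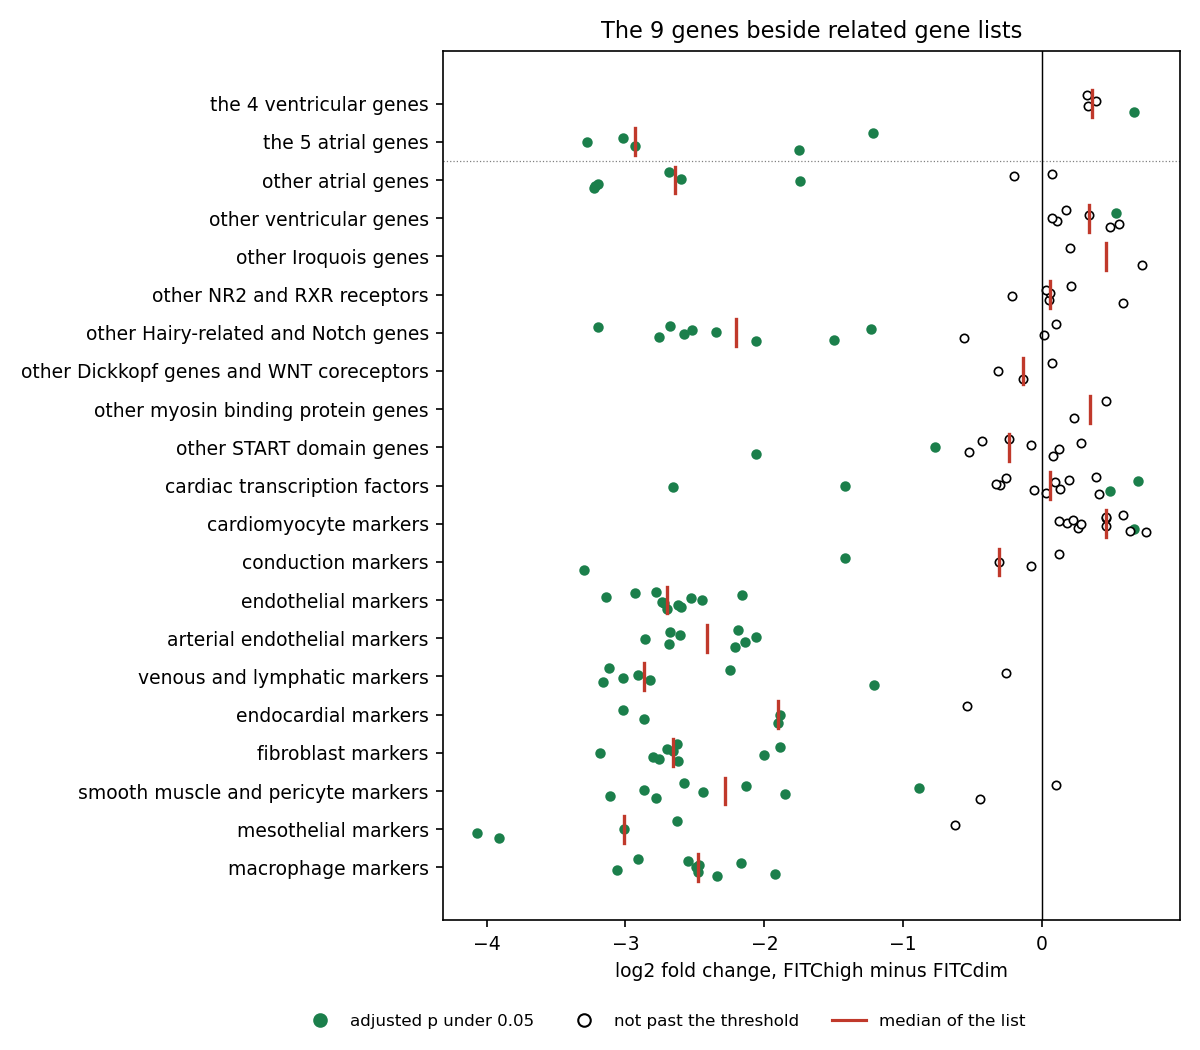
Log2 fold change, FITChigh minus FITCdim, of each tested gene (points) in the ventricular and atrial genes followed here (top 2 lines) and in related gene lists and cell type markers, with the median of each in red. Filled points passed an adjusted p under 0.05. The medians are -2.93 for the atrial genes, -2.70 for the endothelial markers and -2.66 for the fibroblast markers, and 0.36 for the ventricular genes and 0.46 for the cardiomyocyte markers.

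Markers of other cells that could carry Nr2f2, Hey2 or Dkk3 were lower in FITChigh as well. All 11 endothelial markers fell, with summed levels of 679.6 to 972 adjusted read counts per library in FITChigh and 4960.4 to 5426 in FITCdim. Of 8 tested venous and lymphatic markers 7 fell, at summed levels of 209.6 to 312 in FITChigh and 957 to 1291 in FITCdim. Pdpn, among the 7 that fell, was at 0 in every FITChigh library and entered the test through FITCdim alone. Ackr1 was also at 0 in every FITChigh library but was not tested. Its FITCdim values were near 0 as well, at 0.649, 0.015 and 0.00946 adjusted read counts. Endocardial markers fell in 4 of 5, at 103 to 137 in FITChigh and 367 to 828 in FITCdim. Their most abundant gene, Vwf (mean 42.1 in FITChigh and 365 in FITCdim), is also on the venous and lymphatic list. Fibroblast markers fell in 9 of 9 tested, at 115 to 144 in FITChigh and 622 to 1133 in FITCdim. Tcf21 was at 0 in every FITChigh library but was not tested. It was low in FITCdim as well, at 1.18, 0.0593 and 2.22 adjusted read counts. Smooth muscle and pericyte markers fell in 8 of 10, with a median log2 fold change of -2.29. Their summed level, 1395 to 1849 in FITChigh and 1945 to 2557 in FITCdim, is mostly that of 2 markers not called, Abcc9 (mean 1228 in FITChigh and 1148 in FITCdim) and Acta2 (mean 304 in FITChigh and 414 in FITCdim). Mesothelial markers fell in 4 of 5 tested, at 5.68 to 9.91 in FITChigh and 63.6 to 150.1 in FITCdim. Among these 4, Upk1b entered the test through FITCdim alone. It stood at 0.965, 0.0326 and 0 adjusted read counts in FITChigh and 12.7, 13.3 and 1.46 in FITCdim. Macrophage markers fell in 9 of 9, at 90.8 to 127 in FITChigh and 459 to 1037 in FITCdim. The part of these cells in the levels of the 9 genes was not tested.

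Conduction markers moved in part. Of 5 tested, Cntn2, a contactin of Purkinje fibres, fell (log2 fold change -3.30, limma adjusted p = 1.8e-05), as did Tbx3, and 3 missed the threshold, including Cacna1g at 0.12, which had the highest level. Their summed levels were 114 to 169 adjusted read counts in FITChigh and 205 to 251 in FITCdim. The leading endothelial falls were those of Cldn5, Esam and Eng, at -3.14, -2.93 and -2.78, and the leading fibroblast falls those of Dcn, Col3a1 and Col1a2, at -3.18, -2.80 and -2.76. Nrp2, a semaphorin and vascular growth factor receptor, led the venous and lymphatic list at -3.16, Msln, mesothelin, the mesothelial list at -4.07, and Tagln, transgelin, the smooth muscle list at -3.11, ahead of Rgs5 and Myh11. In the other lists the largest falls were Sox17 at -2.86 (arterial), Vwf at -3.02 and Cytl1 at -2.87 (endocardial), Upk3b at -3.91 and Wt1 at -3.01 (mesothelial) and Emr1 at -3.06 and Mrc1 at -2.91 (macrophage). By level the lists were led by Fabp4 (endothelial, -2.45), Efnb2 (arterial, -2.14), Gsn (fibroblast, -1.89), Lyz2 (macrophage, -2.47), Abcc9 (smooth muscle and pericyte, 0.10, not called) and Myh6 (cardiomyocyte, 0.75, limma adjusted p = 0.14). Tnni3, cardiac troponin I, was the 1 cardiomyocyte marker of 12 called higher, at 0.66 (limma adjusted p = 0.042). It was not called without a filter, after rescaling or with quantile normalization (limma adjusted p = 0.081, 0.12 and 0.39), nor without FITChigh replicate 1 or 2 or FITCdim replicate 1 or 3 (limma adjusted p = 0.06 to 0.17). The number of the 12 called higher was 6 with the filter of 10 and 7 with robust empirical Bayes, limma-voom or the title tag as a block.

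Genes that overlap members on the opposite strand were nearly silent where a row matched. A830082K12Rik, antisense to Nr2f1, was listed at 0 in all FITChigh libraries and at 1.18, 1.25 and 1.16 adjusted read counts in FITCdim. B130024G19Rik, opposite Nr2f2, was listed at 0 in all FITChigh libraries and at 2.66, 0.0733 and 1.17 in FITCdim. Gm12522, opposite Mybphl, was at 0 in all 6. The antisense gene Irx3os overlaps Irx3 and no row was matched to it. How strand was used in counting is not stated, so such paired genes cannot be told apart.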

How the data were processed

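Polyadenylated RNA was sequenced as paired reads of 75 bases with a strand-specific kit, per the labels' protocols. STAR 2.5, edgeR and the build mm10 are named in the submitters' processing notes; the counter, the annotation and the handling of strand are not stated. Each deposited value is a signal: the number of reads of a gene, which the authors adjusted so that libraries compare at one size. Of 23410 lines, 6 were garbled and left out. The reads behind the values were recovered by running the negative binomial adjustment backwards (dispersion 0.0203), and 100% came out whole within 0.1 reads. Intervals cover counting error only.

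A gene was tested where 3 or more of 6 libraries reached 1, on the log2 scale after adding 1, by limma 3.58.1 under R 4.3.3 (limma-trend, two-sided, Benjamini-Hochberg over all 12907), FITChigh minus FITCdim. Fold changes on this scale understate those of low genes. Replicate numbers follow accession order. Libraries of a gate differed by more than counting noise (chi-square over its degrees of freedom, 3.87 to 6.60). The method was checked on simulated reads.

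The 9 genes and 20 lists were chosen with earlier results of these data known, and lists are described by counts and medians, with no list test. Named in a list are its most abundant gene and up to 3 called genes of largest change, besides Myl2, Myl7 and Nppa; other list genes were named after their values were seen. Likeness took the 2 genes of highest r for each of the 9 with a mean of at least 10 in a gate. List symbols were matched to the table, 2 through RefSeq synonyms. Some genes these rules take are not reported here.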

Additional observations from a re-analysis of the deposited data

How the results depend on the processing

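Dkk3, Mybphl, Nr2f2 and Stard10 were called lower in all 15 alternatives, with log2 fold changes of -3.53 to -2.75, -3.27 to -2.43, -3.17 to -2.11 and -1.45 to -0.94. Irx4, Irx5 and Hey2 were called in 0 of 15, with log2 fold changes of 0.12 to 0.44, 0.19 to 0.64 and 0.13 to 0.75. Irx3 was called in 11 of 15, between 0.46 and 0.78. Nr2f1 was called in 5 of 11, between -2.35 and -0.66; it was not called with a pseudocount of 5 (adjusted p = 0.064), quantile normalization (0.27), robust empirical Bayes (0.052), limma-voom on recovered reads (0.065) or when FITChigh replicate 1 (0.14) or FITChigh replicate 2 (0.12) was left out. It was not tested with the filter of 10 or without a FITCdim library, since it then fails the filter on low values. No sign changed for any of the 9.

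The number of the 9 genes called was 4 to 6 when a library was left out. All calls numbered 2072, and 1300 to 2013 with a library left out. Higher calls numbered 324, and 67 to 341 with a library left out: 67 when FITChigh replicate 1 was omitted, 185 for FITChigh replicate 2 and 148 for FITCdim replicate 1. They were 41 after rescaling to one common total. Lower calls were 1748, and 1152 to 1672 with a library left out, the lowest when FITCdim replicate 1 was omitted. These fits have fewer samples, and the cause was not tested.

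Titles of both gates share a tag (none, 1-2 or 3-4). Deviations from the gate means correlated at 0.07, 0.13 and 0.17 between libraries of the same tag. Between libraries of different tags they correlated at -0.12 to -0.01, and every library correlated best with its own tag. Not every same-tag pair passed 0.1, so the tag was not taken as a pairing. The main test therefore leaves out any pairing that exists. With the tag as a replicate block, 3123 genes were called, 1064 of them higher, and the same 6 of the 9 genes passed. Distinct genes on the lists were called 69 to 95 times over the alternatives, against 79.

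Depth limits Nr2f1 (1 read in FITChigh and 12 in FITCdim), Nr2f2 (10 and 107), Mybphl (18 and 181), Dkk3 (22 and 265) and Hey2 (51 and 45).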
